A study of Mus musculus with 8 samples.

Results

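The genes described here are the immunoglobulin genes of the mouse: the variable (V) and constant (C) segments of the heavy, kappa and lambda chain loci, together with Jchain. A gene was taken when its RefSeq biotype was an immunoglobulin V, D, J or C segment, or when it was Jchain, and when at least 1 RNA library held an expected count of 10 or more for it. Of 45706 genes in each RNA file, 141 met this rule: 7 heavy C genes, 72 heavy V genes, 1 kappa C gene (Igkc), 54 kappa V genes, 3 lambda C genes, 3 lambda V genes and Jchain. No D or J segment did. The 10 D segments were at 0 in every library and the 12 J segments reached at most 2 counts, and RSEM gave all of them an effective length of 0, so their transcription was not measurable in these files. At the edge of the rule, Igkv7-33, Ighv14-4 and Ighv13-2 had a highest count of 10, and Igkv1-133, Igkv4-74 and Igkv9-123 fell just short, with 9.97, 9.35 and 9 counts.

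LSK cells sorted from C57BL/6 bone marrow were profiled by RNA-seq and by ATAC-seq, in which a transposase cuts DNA where chromatin is accessible. LSK cells lack lineage markers and carry Sca1 and Kit, a gate that holds the stem cells and multipotent progenitors of blood. The mice were wild type (WT) or had a conditional knockout (KO) of Hira, a chaperone that places the histone variant H3.3 into chromatin, and each assay had 2 libraries of each kind. The driver of the deletion, the age and sex of the mice and any pooling of mice are not given in the sources used here. Nor is it given whether the 2 libraries of a group came from separate mice. The p-values therefore measure the spread between these libraries, which may be technical. In the labelled WT RNA pair this spread also holds a difference in sex-linked genes, given below.

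The labels need a caution that reaches every direction below. Hira itself had a normalised count (CPM, counts scaled to library size) of 16.5 and 17.2 in the RNA libraries labelled WT and of 24.4 and 23.3 in those labelled Hira KO, and the deposited files carry the opposite genotype in their names from that in the sample titles. For this reason each library is named by its title, as labelled WT or labelled Hira KO. In labelled WT replicate 2 the Y-linked gene Ddx3y had 906 counts against 1 or 2 in the other libraries. Xist, the X-inactivation transcript of females, had 1470 counts there. It had 169234 in labelled WT replicate 1 and 232764 and 171024 in labelled Hira KO. In these genes the labelled WT pair differed by sex and the labelled Hira KO pair did not. Labelled Hira KO replicate 2 had 6 counts of AY036118, a ribosomal RNA-derived transcript, against at least 86174 in the others. Depth was 16.6 to 19.8 M counts per RNA library, of which 40.8% to 53.1% were mitochondrial. Kit was present at 274 to 351 CPM and Ly6a, which encodes Sca1, at 8.86 to 33.6 CPM. Bulk RNA cannot tell apart a different number of cells of a type and a different amount of RNA per cell.

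An antibody pairs heavy chains with light chains, which are of the kappa or the lambda type. Developing B cells join a V segment to a J segment, with a D segment between them in the heavy chain, by RAG-dependent recombination, and the joined exon is spliced to a constant gene that sets the class. Unrearranged V segments and constant genes can also be transcribed in the germline state, before any joining, and lymphoid-primed progenitors are known for such sterile transcripts. Counts per V or C gene do not distinguish germline from rearranged transcripts. In plasma cells the same genes rank among the most transcribed, and the J chain joins IgM and IgA into polymers.

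Summed immunoglobulin counts were higher in both libraries labelled Hira KO than in both labelled WT. The 141 genes together held 13209 and 11671 counts in the labelled WT libraries and 108361 and 57424 counts in the labelled Hira KO libraries. As shares of all counts these were 0.0796% and 0.0588% against 0.619% and 0.296%, and the 95% Wilson interval reached at most 0.00369 percentage points from the share. These intervals, and every other interval of counts here, cover counting error only. Labelled Hira KO replicate 1 was the highest library and lay 1.63 times above replicate 2 on the CPM scale, while the lowest ratio of any labelled Hira KO library to any labelled WT library was 4.94. Of the 141 genes, 53 and 71 were at 0 in the labelled WT libraries and 7 and 21 in the labelled Hira KO libraries. The rule of 10 counts in at least 1 library shapes these numbers. That count was reached by 42 and 32 of the genes in labelled WT and by 123 and 102 in labelled Hira KO.

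The test across genes used edgeR's quasi-likelihood method on rounded expected counts, with Benjamini-Hochberg adjustment over 16258 genes and a threshold of 0.05. A filter on low counts let 93 of the 141 genes through, and a gene at 0 in labelled WT could pass it only through the labelled Hira KO libraries. Of the 93 genes, 22 were higher in labelled Hira KO and 0 were lower, where 1.32% of all tested genes were called higher and 0.48% lower. At an unadjusted p under 0.05, 52 were higher, where 12.2% of all tested genes were, and 1 was lower. DESeq2 called 41 higher and 1 lower. A log2 fold change above 0 was found for 88 of the 93 genes and for 50.9% of all tested genes. The median log2 fold change of the 93 genes was 2.90, and 2.75 when the 11 tested genes at 0 in both labelled WT libraries were set to their lower bound; the median over all genes was 0.014. Both labelled Hira KO libraries lay above both labelled WT libraries for 71 of the 93 tested genes (28.3% of all tested genes did so) and below them for 2 (27.8%). Over all 141 genes, by CPM, 90 lay above, 3 below and 48 overlapped.

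The number of calls was lower in fits with 1 labelled WT library, which is then assumed to vary like the labelled Hira KO pair. Without labelled WT replicate 1, or without labelled WT replicate 2, edgeR called 1 immunoglobulin gene, Ighg2c, and 4 or 2 genes in the whole table. Of 126 immunoglobulin genes that passed the filter in these fits, 119 and 118 had a log2 fold change above 0. Their medians were 6.27 and 4.40, where those over all genes in the same fits were 0.040 and 0.036. With 1 labelled WT library the filter admits genes counted in a single library, among them genes at 0 in labelled WT. These directions and medians follow in part from that filter and cover other genes than the main fit. Without labelled Hira KO replicate 1 it called 35 and without replicate 2 it called 36, among them 21 and 20 of the 22. Igha was not called without either of the labelled Hira KO libraries, and Jchain not without replicate 2.

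**Figure D1:**
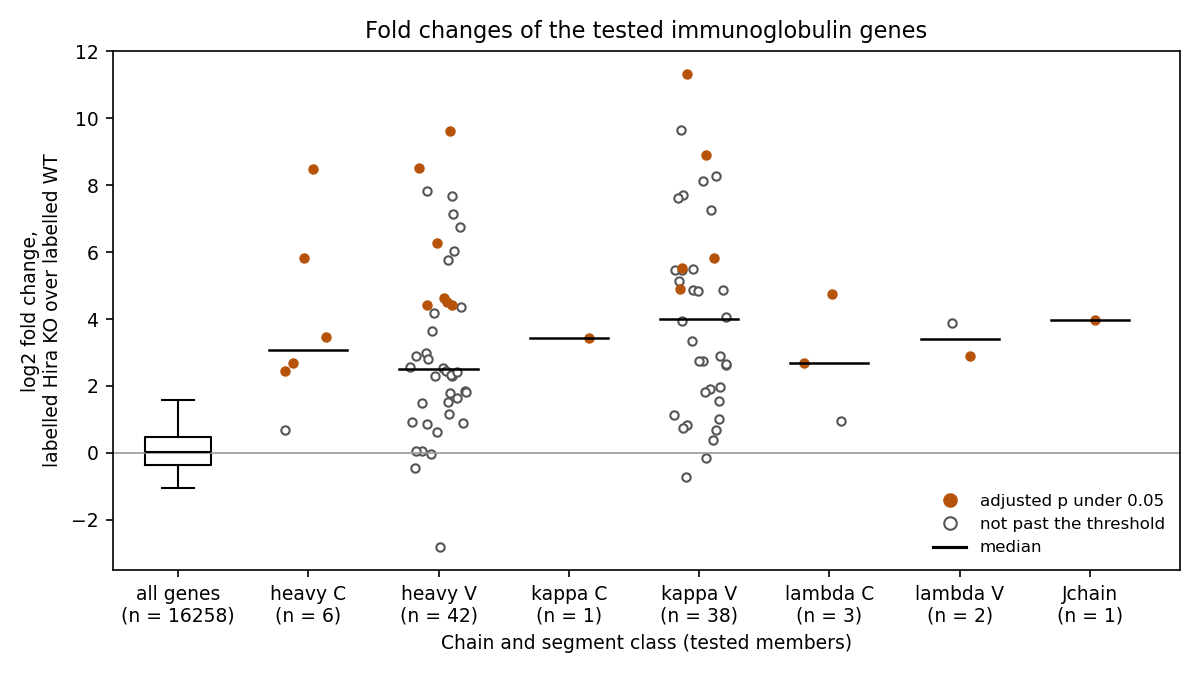
Log2 fold change of each tested immunoglobulin gene (points) by chain and segment class, labelled Hira KO over labelled WT, on a linear log2 axis; filled points passed an adjusted p of 0.05 in edgeR, short bars are class medians, and the box gives all 16258 tested genes (quartiles, with whiskers at the 5th and 95th percentile). Of the 93 points 88 lie above 0, and the 22 filled points are all above 0.

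Among the heavy constant genes, Ighm, Igha, Ighg1, Ighg2b and Ighg2c were higher in labelled Hira KO. That is 5 of the 6 tested, where 1.32% of all tested genes were higher. Ighm encodes the constant region of IgM, the first class a B cell makes, and was the most abundant of all 141 genes. It measured 429 and 410 CPM in labelled WT and 3027 and 1553 CPM in labelled Hira KO. The fitted log2 difference in edgeR was 2.45, with an SE of 0.33 and an adjusted p of 0.0337. The labelled WT libraries were close to each other, and both labelled Hira KO libraries lay far above them. Ighm spans chr12:113418826-113422730 in GRCm38, at the end of the constant cluster nearest the J segments.

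Igha, the constant gene of mucosal IgA, measured 68.9 and 37.3 CPM under the WT label against 360 and 319 CPM (edgeR log2 fold change 2.68, SE 0.30, adjusted p = 0.0324). The IgG constant genes were low in labelled WT. Ighg2b, an IgG subclass gene, measured 6.30 and 5.09 CPM against 48.0 and 77.2 CPM (edgeR log2 fold change 3.46, SE 0.29, adjusted p = 0.00864). Ighg2c, the gene that C57BL/6 mice carry in place of Ighg2a, had 1 count in each labelled WT library against 412 and 360 counts under the other label. Its ratio was 399, with an exact 95% counting interval from 110 to 3302, and its edgeR adjusted p was 0.00152, the lowest of the constant genes. A transcript at the limit of detection in labelled WT thus stood at 21.3 and 21.6 CPM in the labelled Hira KO libraries. Ighg1 went from 1 and 3 counts to 135 and 101 counts, a ratio of 61.0 (exact 95% counting interval 23.5 to 226, edgeR adjusted p = 0.0167).

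Ighg3 split the labelled Hira KO pair. It had 2 and 4 counts in labelled WT, 262 in labelled Hira KO replicate 1 and 10 in replicate 2, and did not pass the filter. Ighd, the constant gene of IgD, which mature naive B cells co-express with IgM by alternative splicing, did not pass the threshold. Its levels were 8.05 and 5.58 CPM in labelled WT and 10 and 12 CPM in labelled Hira KO (edgeR log2 fold change 0.69, SE 0.30, adjusted p = 0.225). The IgE constant gene Ighe stayed below 10 counts in every library and is not among the 141 genes.

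**Figure D2:**
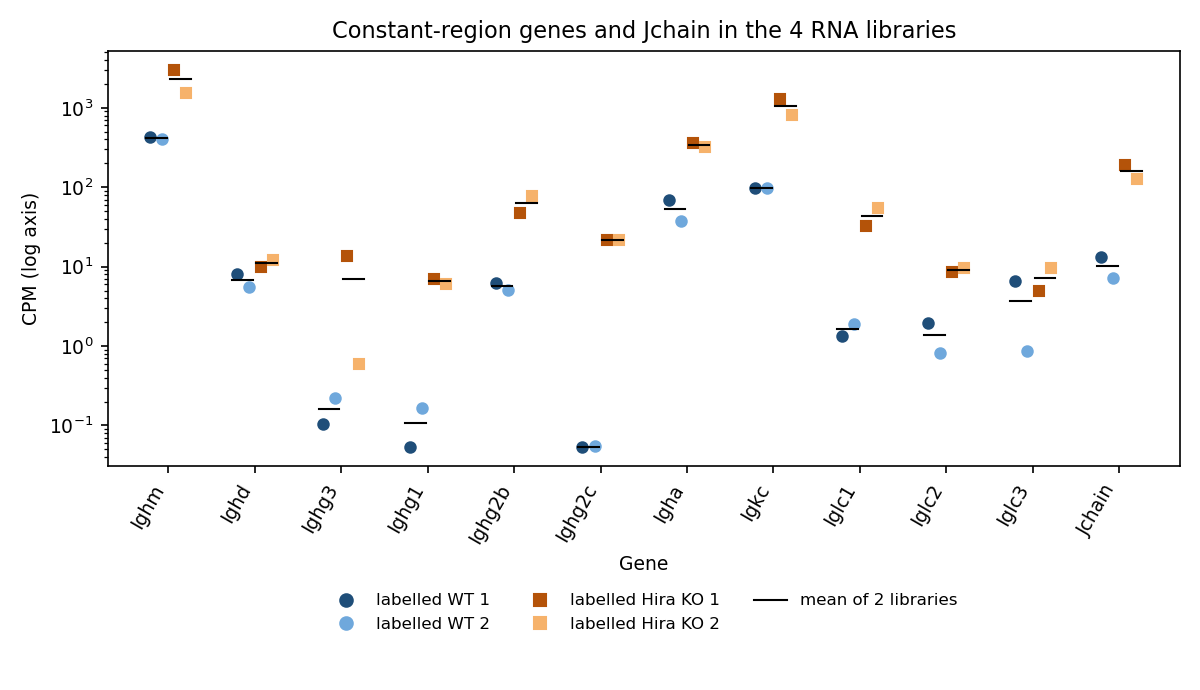
CPM (log axis) of the 11 constant-region genes and Jchain in each of the 4 RNA libraries; circles are labelled WT, squares labelled Hira KO, and bars the mean of 2 libraries. The groups overlap for Iglc3 alone, and the squares of Ighg3 lie far apart, at 13.6 and 0.60 CPM.

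Among the light chain constant genes Igkc, Iglc1 and Iglc2 were higher in labelled Hira KO, and Iglc3 did not pass the threshold. Igkc, the single kappa constant gene (chr6:70726435-70726754), measured 97.1 and 97.2 CPM in labelled WT and 1297 and 811 CPM in labelled Hira KO (edgeR log2 fold change 3.44, SE 0.25, adjusted p = 0.00798). Iglc1, the lambda constant gene that pairs with Iglv1, measured 1.32 and 1.91 CPM against 32.8 and 54.8 CPM (edgeR log2 fold change 4.75, SE 0.35, adjusted p = 0.00798). Iglc2 rose from 1.96 and 0.82 CPM to 8.6 and 9.50 CPM (edgeR log2 fold change 2.69, SE 0.46, adjusted p = 0.0427). For these 3 genes every labelled Hira KO value lay above every labelled WT value. Iglc3 measured 6.51 and 0.88 CPM in labelled WT and 4.87 and 9.62 CPM in labelled Hira KO, overlapping, with an edgeR adjusted p of 0.597. Iglc2 and Iglc3 are near-identical genes whose shared reads RSEM divides by estimate.

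Jchain, which encodes the joining chain of secreted IgM and IgA, measured 13.1 and 7.17 CPM in labelled WT and 192 and 125 CPM in labelled Hira KO. The fitted log2 difference in edgeR was 3.97, with an SE of 0.37 and an adjusted p of 0.0204. It lies on another chromosome from the antibody loci and does not recombine. Its promoter is the single one among the 141 genes that the RefSeq table of GRCm38.p6 holds, and it is shown because an open region was called over it in 1 list. The window is chr5:88527848-88528147 on the minus strand, from 250 bases before to 50 bases after the start, printed 5′ to 3′ with matches to the E-box CANNTG in capitals.
Jchain promoter: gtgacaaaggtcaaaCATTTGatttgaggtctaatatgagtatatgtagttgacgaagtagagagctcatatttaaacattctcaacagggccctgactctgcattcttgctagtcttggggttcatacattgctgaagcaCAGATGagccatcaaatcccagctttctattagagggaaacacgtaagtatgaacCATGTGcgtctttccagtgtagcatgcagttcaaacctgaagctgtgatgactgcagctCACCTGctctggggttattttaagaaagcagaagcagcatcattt
The 4 E-box matches begin at positions -235, -109, -54 and 6 relative to the start, reading on the printed strand; the motif is its own reverse complement. An E-box occurs in 72.3% of all 32851 promoter windows of that length. On either strand the window held no match to the octamer ATGCAAAT of immunoglobulin promoters (1.74% of windows hold one), to the MEF2 motif (3.69%) or to the TATA box TATAAA (13.6%). These are letter matches and say nothing of binding.

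Ratios within a library were taken on the TPM scale, which corrects for gene length. Igkc stood at 95.4 and 99.8 TPM per 100 TPM of Ighm in labelled WT against 172 and 210 in labelled Hira KO. Jchain stood at 2.63 and 1.66 TPM per 100 TPM of heavy C genes against 5.57 and 6.18. The IgG genes gave 1.58% and 1.54% of heavy constant TPM in labelled WT against 3.48% and 6.92% in labelled Hira KO. In all 3 ratios both labelled Hira KO libraries lay above both labelled WT libraries. Ighd went the other way, at 1.25% and 0.96% of heavy constant TPM against 0.22% and 0.44%. Kappa V genes also lay lower relative to Igkc, at 66.1 and 59.3 TPM per 100 TPM of Igkc against 44.4 and 56.4. Heavy V genes per 100 TPM of heavy C genes overlapped, at 49.5 and 70.3 against 54.8 and 66.8. The share of Ighm (78.5% and 86.0% against 82.1% and 71.3%), that of Igha (18.7% and 11.5% against 14.1% and 21.3%) and the ratio of kappa to lambda constant TPM (8.13 and 22.4 against 21.9 and 8.54) overlapped between the groups. With 2 libraries against 2 an exact permutation test cannot reach 0.05, so these ratios carry no test.

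Heavy C genes summed to 512 and 459 CPM in labelled WT and 3487 and 1989 CPM in labelled Hira KO, a ratio of group means of 5.64. For heavy V genes the sums were 32.3 and 39.8 CPM against 276 and 189 CPM, a ratio of 6.45. Kappa V genes summed to 33.3 and 31.4 CPM against 311 and 252 CPM, a ratio of 8.69, and Igkc alone had a ratio of 10.8. In the lambda locus the ratio was 8.97 for the C genes and 8.77 for the V genes. The 4 IgG genes together had 6.51 and 5.53 CPM against 89.9 and 106 CPM, a ratio of 16.2, close to the 15.7 of Jchain. In every class both labelled Hira KO sums lay above both labelled WT sums. Labelled Hira KO replicate 1 was the higher of its pair for the heavy C, heavy V, kappa and Jchain sums and the lower for the IgG sum and both lambda sums.

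V genes pair with a J segment to encode the antigen-binding domain, and each was counted on few reads in labelled WT. Of the 42 heavy V genes tested, 7 were higher, where 1.32% of all tested genes were. A log2 fold change above 0 was found for 39 of the 42 (50.9% of all tested genes), with a median of 2.5. Of the 38 kappa V genes tested, 5 were higher and 36 were above 0, with a median of 4.0. Of 2 lambda V genes tested, 1 was higher: Iglv1 measured 0.95 and 0.60 CPM in labelled WT and 4.09 and 7.69 CPM in labelled Hira KO (edgeR adjusted p = 0.0470). Of the V genes among the 141, 37 were at 0 in both labelled WT libraries and none in both labelled Hira KO libraries, which the rule of 10 counts in at least 1 library shapes. A further 17 heavy and 23 kappa V segments, outside the 141, were at 0 in all 4 libraries.

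The most abundant heavy V genes by mean CPM were Ighv1-81, Ighv11-2, Ighv1-5, Ighv1-55 and Ighv1-9. Ighv1-81, of the large distal V family formerly called J558, measured 0.37 and 0.27 CPM in labelled WT and 35.0 and 16.2 CPM in labelled Hira KO (edgeR log2 fold change 6.28, SE 0.53, adjusted p = 0.0108). Ighv11-2, known from the B-1a cell receptors that bind phosphatidylcholine, had 0 and 2 counts in labelled WT and 578 and 232 counts in labelled Hira KO. Its ratio was 419 (exact 95% counting interval 116 to 3465, edgeR adjusted p = 0.0168). Both genes were near the limit of detection in labelled WT and among the leading V genes of both labelled Hira KO libraries.

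The other 3 were uneven within a group and did not pass the threshold. Ighv1-5 had 1 and 2 counts in labelled WT, 672 in labelled Hira KO replicate 1 and 19 in replicate 2 (edgeR adjusted p = 0.241). Ighv1-9 was carried by the other library, at 2.90 CPM in labelled Hira KO replicate 1 and 25.7 CPM in replicate 2, with 2.22 and 0.05 CPM in labelled WT (edgeR adjusted p = 0.378). Ighv1-55 measured 0.53 and 3.45 CPM against 21.9 and 7.75 CPM (edgeR adjusted p = 0.194). For each of these 3 genes the most abundant library held most of the counts, and it was not the same library for all of them.

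The 5 most abundant kappa V genes were Igkv1-135, Igkv1-110, Igkv15-103, Igkv1-117 and Igkv5-39. Igkv5-39 was at 0 in both labelled WT libraries and had 418 and 217 counts in labelled Hira KO, which is at least 107-fold higher against a floor of 3 counts per library (edgeR adjusted p = 0.00858). Igkv1-135, the most abundant V gene of all, measured 0.79 and 3.61 CPM in labelled WT and 104 and 23.5 CPM in labelled Hira KO. Igkv1-110 measured 2.17 and 0.16 CPM against 18.5 and 48.6 CPM. Both labelled Hira KO values lay above both labelled WT values for these 3 genes, yet the spread within the groups kept Igkv1-135 (edgeR adjusted p = 0.176) and Igkv1-110 (0.135) short of the threshold. Igkv15-103 measured 1.38 and 0.11 CPM against 38.2 and 15.1 CPM, with an edgeR adjusted p of 0.0956. Igkv1-117 measured 2.01 and 8.81 CPM against 10 and 30.8 CPM, with an edgeR adjusted p of 0.324.

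The next called increases by size fell on 6 further V genes. Ighv2-6 was at 0 in labelled WT and had 45 and 141 counts in labelled Hira KO, at least 33.5-fold higher (edgeR adjusted p = 0.0475). Igkv10-94 was likewise at 0 in labelled WT, with 50.4 and 64.9 expected counts in labelled Hira KO, at least 20.1-fold higher (edgeR adjusted p = 0.0336). Igkv17-127, Igkv4-72 and Igkv8-21 had 3, 3 and 4 counts over both labelled WT libraries and 172, 146 and 126 over both labelled Hira KO libraries, ratios of 59.3, 50.3 and 32.6. Ighv1-66 measured 0.74 and 0.05 CPM against 11.9 and 8.41 CPM (edgeR adjusted p = 0.0487), and was not called by limma on log2(TPM + 0.1). The groups did not overlap for any of these 6 genes, where 28.3% of all tested genes lay above in both labelled Hira KO libraries. The 6 were chosen as large called increases, so this adds no support.

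A few V genes leaned the other way. Ighv2-2 was the leading heavy V gene of both labelled WT libraries. It measured 6.14 and 16.4 CPM in labelled WT and 1.71 and 1.5 CPM in labelled Hira KO (edgeR log2 fold change -2.80, SE 0.52, adjusted p = 0.0516). It missed the threshold in edgeR, and DESeq2, limma, the fit without a filter and the replicate block called it lower. It was picked out here after its values were seen. The posterior SD of its count exceeded 10% of the count in 1 library, a sign that reads were shared with similar segments; this held for 11 of the 141 genes, all V genes, and for 0 of the 22 called. Igkv3-2 measured 4.87 and 7.60 CPM against 2.75 and 4.87 CPM (edgeR adjusted p = 0.350).

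**Figure D3:**
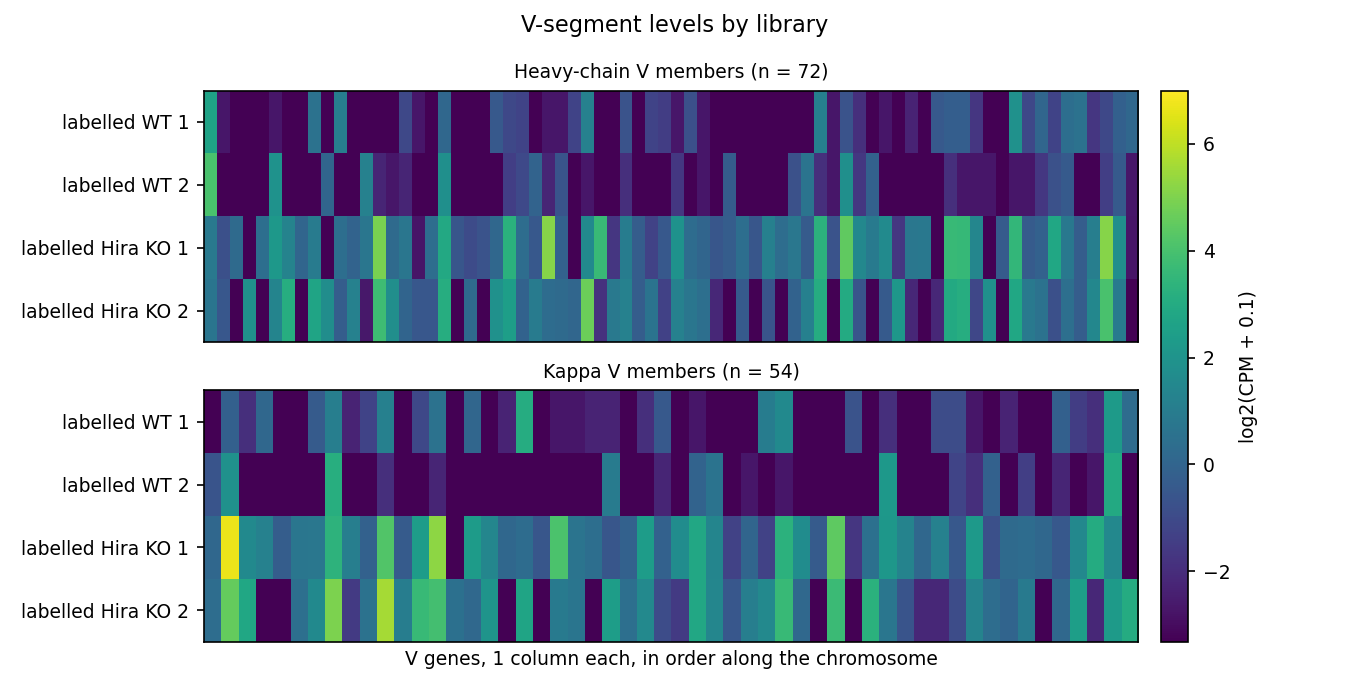
Level of each V gene (1 column each, in order along the chromosome) in the 4 RNA libraries as log2(CPM + 0.1), for 72 heavy and 54 kappa genes. Dark columns in the labelled WT rows are genes at or near 0; Ighv2-2, the first heavy column, is brightest in the labelled WT rows.

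No single V gene held the V counts of labelled Hira KO. In the heavy chain the most counted gene took 18.9% (Ighv2-2) and 41.2% (Ighv2-2) of V counts in labelled WT against 12.7% (Ighv1-81) and 13.5% (Ighv1-9) in labelled Hira KO, and the 95% Wilson interval reached at most 3.65 percentage points away. It took 6 and 2 heavy V genes to reach 50% of V counts in labelled WT against 6 and 8 in labelled Hira KO. In the kappa chain the leading shares were 25.1% (Igkv4-91), 28.1% (Igkv1-117), 33.5% (Igkv1-135) and 19.3% (Igkv1-110), in the order labelled WT 1 and 2 and labelled Hira KO 1 and 2, with intervals of at most 3.78 points to a side. The kappa shares overlapped between the groups. Of the 10 most counted genes, the labelled Hira KO libraries shared 7 in the heavy and 7 in the kappa chain, the labelled WT libraries shared 2 and 2, and pairs of 1 library of each label shared 1 to 4 and 3 to 5. By rank over all 72 heavy V genes the labelled Hira KO pair was no more alike than pairs across labels. The Spearman coefficient was 0.36 against 0.33 to 0.40, and 0.27 for the labelled WT pair. By Pearson coefficient of log2(CPM + 1) the labelled Hira KO pair was the most alike. Its value was 0.52 against 0.15 to 0.38 across labels, and 0.35 for the labelled WT pair. Over the 54 kappa V genes the Spearman coefficient was 0.47 for the labelled Hira KO pair, 0.23 for the labelled WT pair and 0.22 to 0.35 across labels. These coefficients are across genes, which are not independent replicates, and describe these libraries only. The labelled WT libraries had 574 to 728 V counts per chain and the labelled Hira KO libraries 3151 to 5994, so the order of genes is less precise in labelled WT.

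By family, the 42 Ighv1 genes summed to 19.9 and 9.90 CPM in labelled WT and 199 and 115 CPM in labelled Hira KO. All 24 tested Ighv1 genes had a log2 fold change above 0, with a median of 2.94, and 4 were called. Of all tested genes 50.9% were above 0 and 1.32% were called higher. The 6 Ighv2 genes overlapped between groups, at 7.57 and 20.1 CPM against 11.5 and 22.4 CPM. The 5 Igkv1 genes summed to 5.03 and 12.6 CPM against 135 and 104 CPM, with none called. The 3 Igkv5 genes summed to 0 and 0.055 CPM against 25.8 and 16.1 CPM.

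Open chromatin was read from the authors' peak lists, 1 per ATAC library, merged into 112479 regions. The loci were taken in GRCm38 from the first to the last annotated segment with 10 kb added at each end: heavy at chr12:113256204-116009954, kappa at chr6:67555636-70726754, lambda at chr16:19061752-19260844, and Jchain at chr5:88519809-88527897. They held 221 regions. Of these, 57 were called in all 4 lists (40.7% of all regions were), 0 in the labelled WT pair alone (2.77%) and 17 in the labelled Hira KO pair alone (5.64%). The other 147 had mixed patterns. The 17 are 7.69% of the regions in the loci, not far from the share over all regions.

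The 4 lists were far apart in these loci. They called 110 and 67 of the 221 regions in labelled WT against 197 and 99 in labelled Hira KO. Labelled Hira KO replicate 1 was the longest list, with 92839 peaks against 63422 to 79565 in the others. Per 1000 regions called anywhere, 1.42 and 1.14 lay in the immunoglobulin loci in labelled WT against 2.21 and 1.44 in labelled Hira KO. So labelled Hira KO replicate 1 stood apart, and replicate 2 was close to labelled WT replicate 1. Without labelled Hira KO replicate 2 the regions called in the labelled Hira KO side alone numbered 98, and without labelled WT replicate 2 those in the labelled WT side alone numbered 16. No read depth comes with the lists, and the part of list length in these counts was not tested.

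**Figure D4:**
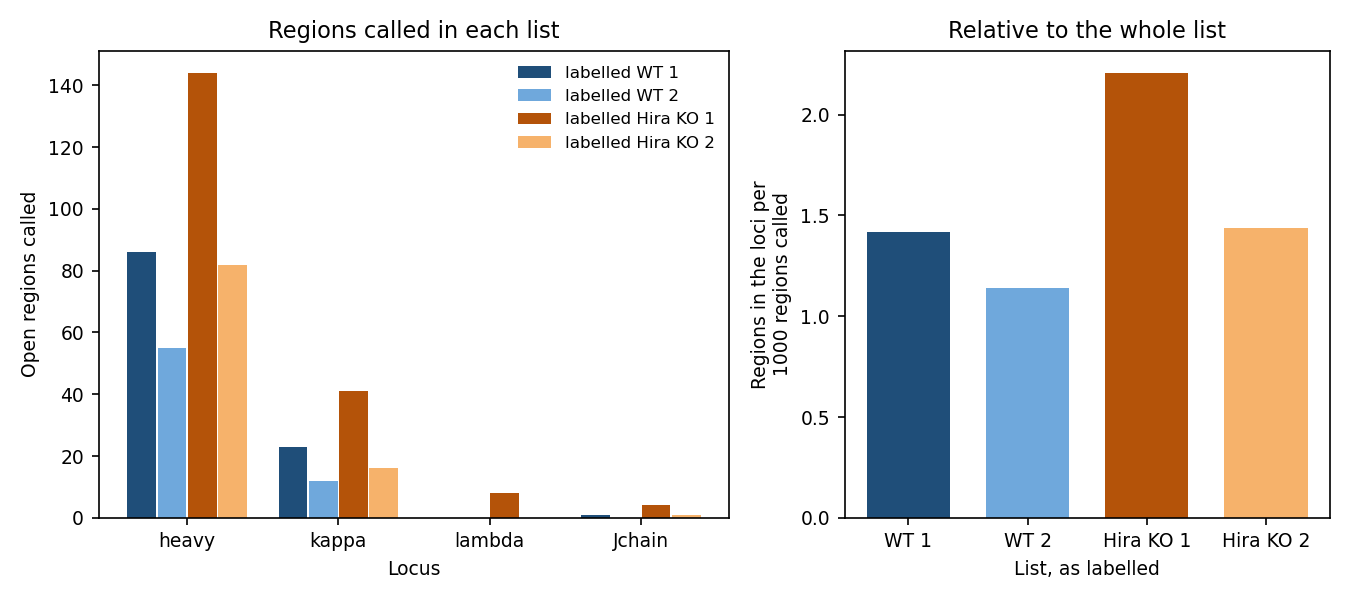
Left, open regions called in each ATAC list in the 4 loci; right, regions in the loci per 1000 regions called in the list. Bars start at 0, and labelled Hira KO replicate 1 is highest in each locus and in the right panel, at 2.21.

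The heavy locus held 161 regions, of which 143 had a V segment as the nearest segment and 80 overlapped a segment. Of these 161 regions, 47 were in all lists and 15 in the labelled Hira KO pair alone. Regions that overlapped Ighv1 segments numbered 47, of which 20 were in all lists and 5 in the labelled Hira KO pair alone; the family has 93 segments in the table, pseudogenes included. Of the 120 heavy V genes that are not pseudogenes, 25 overlapped a region called in all lists, and 18 of these 25 (72.0%) were among the transcribed genes counted here. Of the 95 that did not, 54 (56.8%) were. With a region called in any list instead, the numbers were 40 of 64 (62.5%) against 32 of 56 (57.1%). A gene could be counted here through the labelled Hira KO libraries alone, and the difference was not tested. The kappa locus held 48 regions, 10 in all lists and 2 in the labelled Hira KO pair alone, and no kappa V gene overlapped a region called in all lists. All 8 regions of the lambda locus were called in labelled Hira KO replicate 1 alone.

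The regions with the highest enrichment lay outside the V genes or between them. The fold enrichment over background that the authors' caller gave is a value within a list. It was 124, 64.3, 76.7 and 60.7 in labelled WT 1 and 2 and labelled Hira KO 1 and 2 for chr6:70730687-70731392, 3933 bases beyond Igkc. The region chr6:70709135-70710369, 4958 bases from Igkv3-1, had 63.1, 60.4, 45.2 and 47.0. In the heavy locus chr12:114284894-114285598, 2554 bases from Ighv3-6, had 46.8, 39.7, 51.1 and 42.2. All 3 were called in every library, labelled WT included.

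The 17 regions of the labelled Hira KO pair were weaker, with fold enrichments of 3.43 to 9.79 in the 2 lists. One, chr12:113426634-113426989, lay between Ighm and the J segments, 1525 bases from Ighj4, in the interval where the intronic heavy-chain enhancer is known to lie. That interval was open under both labels: the regions on either side of it there, chr12:113424258-113425643 and chr12:113427263-113427745, were called in all 4 lists. Another, chr12:114790863-114791132, lay 2198 bases from the called gene Ighv1-26. Others overlapped Ighv1-9 (chr12:114583398-114583703), Ighv8-7, Ighv1-62-2, Ighv1-79, Ighv1-84 and the pseudogene Ighv1-2 in the heavy locus. The other 7 of that locus overlapped no segment and lay nearest to Ighv10-4 (1860 bases away), Ighv15-2 (1128), Ighv8-6 (5639), Ighv1-65 (12167), Ighv8-12 (7486), Ighv1-79 (4016) and Ighv1-82 (2693). In the kappa locus the 2 regions overlapped Igkv10-96 (chr6:68631668-68632082) and Igkv10-95 (chr6:68680743-68681121), neighbours of the called gene Igkv10-94. None of the 17 regions overlapped a called gene. Among the overlapped genes, Ighv1-9 and Igkv10-96 had both labelled Hira KO values above both labelled WT values. Ighv1-84 had 19 and 0.99 counts in labelled WT against 1.04 and 0 in labelled Hira KO. Its labelled Hira KO values were below by CPM only. That rests on 1 rounded count each, at 0.0547 CPM in labelled WT replicate 2 and 0.0518 CPM in labelled Hira KO replicate 1. The groups overlapped for Ighv1-62-2. At Jchain, a region over the start (chr5:88527640-88528139) was called in labelled Hira KO replicate 1 alone, with a fold enrichment of 7.69, and a region 160 bases past the other end of the gene was called in labelled WT replicate 1 and both labelled Hira KO lists.

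The genes that work with the immunoglobulin loci were given in 6 lists. Beside the calls in these lists stand 1.32% of all tested genes called higher and 0.48% called lower. None of the 14 genes of V(D)J recombination was called. Rag1, the catalytic subunit of the recombinase, measured 29.2 and 20.6 CPM in labelled WT and 17.5 and 7.63 CPM in labelled Hira KO (edgeR adjusted p = 0.221), and its partner Rag2 19.4 and 24.6 CPM against 20.9 and 17.6 CPM (0.649). Dntt, which adds bases at the joins, measured 135 and 109 CPM against 188 and 177 CPM (0.0946). The list's median log2 fold change was -0.18.

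Of 14 tested genes of the pre-B-cell and B-cell receptor, 0 were higher and 1 was lower, with a median of -0.07. Igll1, a chain of the surrogate light chain, measured 62.7 and 56.7 CPM in labelled WT and 27.8 and 23.6 CPM in labelled Hira KO (edgeR log2 fold change -1.21, SE 0.18, adjusted p = 0.0337). Its partner Vpreb1 measured 16.2 and 10.8 CPM against 8.08 and 6.97 CPM (0.151). Cd79a, which carries the receptor's signal, measured 35.8 and 28.6 CPM against 19 and 11.5 CPM (0.086), and Cd79b 20.7 and 17.1 CPM against 19.6 and 19.2 CPM (0.939). Igll1 was not called by limma at either pseudocount.

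Among 23 factors of immunoglobulin transcription in the B lineage, 1 was higher and 0 were lower, with a median of -0.14. Mef2c, a transcription factor of lymphoid progenitors, measured 240 and 202 CPM in labelled WT and 445 and 540 CPM in labelled Hira KO (edgeR log2 fold change 1.16, SE 0.17, adjusted p = 0.0337); limma did not call it. Pax5, which holds B-cell identity, measured 105 and 69.6 CPM against 53.7 and 36.5 CPM (0.106), and Ebf1, which starts the B-cell programme, 53.5 and 50.3 CPM against 32.9 and 25.7 CPM (0.0682). Of 8 tested genes of class switching, none was called, with a median of -0.33.

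Of 23 tested genes of secretion and plasma cells, 1 was higher, with a median of 0.11. Dnajb9, a chaperone of the endoplasmic reticulum, measured 16.5 and 12.9 CPM against 33.6 and 54.9 CPM (edgeR log2 fold change 1.59, SE 0.28, adjusted p = 0.0462). Prdm1, which drives plasma cell fate, measured 1.38 and 0.38 CPM against 6.22 and 2.64 CPM (0.124). Xbp1, the secretory stress factor, measured 64.4 and 42.6 CPM against 50.9 and 69.1 CPM (0.742), and the plasma cell surface gene Sdc1 3.92 and 4.05 CPM against 4.72 and 5.83 CPM (0.519). Mzb1, a chaperone of antibody assembly, measured 4.45 and 3.83 CPM against 1.55 and 1.86 CPM (0.133). Of 9 tested genes of immunoglobulin and Fc receptors, 0 were higher and 1 was lower, with a median of -0.19. Fcgr2b, the inhibitory IgG receptor, measured 37.5 and 33.0 CPM against 10 and 10.6 CPM (edgeR log2 fold change -1.78, SE 0.20, adjusted p = 0.019). In the fits with 1 labelled WT library, which called 4 or 2 genes in all, none of Igll1, Mef2c, Dnajb9 and Fcgr2b was called.

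**Figure D5:**
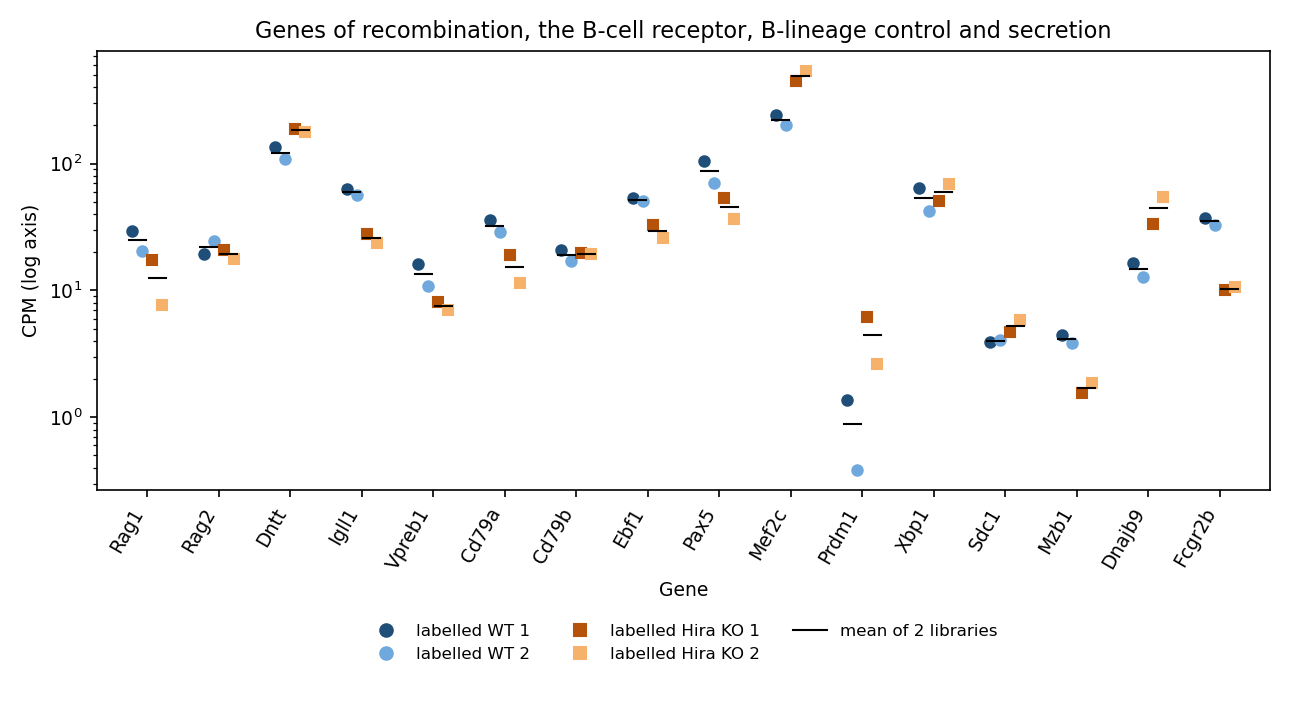
CPM (log axis) of 16 genes of recombination, receptor, B-lineage control, secretion and Fc binding in the 4 RNA libraries; circles are labelled WT, squares labelled Hira KO and bars the mean of 2 libraries. Igll1 and Fcgr2b lie lower in labelled Hira KO and Mef2c and Dnajb9 higher.

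Summed marker levels of the cell types that make antibodies did not share a direction. The 12 markers of mature B cells summed to 262 and 212 CPM in labelled WT and 175 and 135 CPM in labelled Hira KO, with none called. The 12 markers of pro-B and pre-B cells summed to 1170 and 1133 CPM against 970 and 884 CPM, with Igll1 lower. Of the 10 plasma cell markers Jchain is itself 1 of the 141 genes. The other 9 summed to 102 and 66.4 CPM against 85.5 and 99.2 CPM, which overlapped, with none called. Among these 9, Xbp1 alone held most of the sum in every library, at the levels given above. Of these 9, both labelled Hira KO values lay above both labelled WT values for 5 and below them for 2. Of all tested genes 28.3% lay above and 27.8% below. The 2 below were Mzb1 and Fkbp11 (7.41 and 6.18 CPM against 2.44 and 1.68 CPM). Tnfrsf17, a defining receptor of plasma cells, was too low to be tested, with 0 counts in both labelled WT libraries and 8 and 1 counts in labelled Hira KO. Markers of monocytes and neutrophils summed to 4223 and 2721 CPM against 1741 and 959 CPM, with Ly6c2 lower, those of erythroid cells to 215 and 246 CPM against 113 and 68.3 CPM with none called, and the sums for T and NK cells (57.0 to 97.2 CPM, with Cd4 higher) and dendritic cells (505 to 596 CPM, with Flt3 higher) overlapped. The 10 markers of LSK and stem cells summed to 705 and 850 CPM against 1453 and 1818 CPM, with 5 higher, Flt3 among them. The part of any of these cell types in the immunoglobulin levels was not tested.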

How the data were processed

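RNA-seq and ATAC-seq of mouse LSK cells were used, 2 libraries per labelled genotype and assay, grouped by sample title. The genes and lists were chosen with earlier results of these data known. Per the labels' protocols, RNA was amplified with a NuGEN kit before Nextera XT libraries; no source used here says that strand was kept. The build was GRCm38, and the tools listed without roles in the submitters' processing notes were RSEM 1.3.0, STAR 2.5.3a, MACS2 2.1.1, Bowtie2 2.2.9, Trim Galore 0.4.5, HTSeq, bedtools and DESeq2. Per the file headers, each RNA file gives the authors' expected count, TPM, effective length and posterior SD of the count per gene. Deposited expected counts are not normalized, and the TPM values deposited by the authors have the same total in each library. Near-identical segments share reads, which such estimates divide. Each deposited narrowPeak list gives, per peak, a fold enrichment (a ratio) and −log10 p and q values of the authors' caller.

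Symbols were matched for 45143 of 45706 gene IDs. RefSeq (GRCm38.p6) gave biotypes, positions and the promoter, and 137 pseudogene segments were left out. Expected counts were rounded and fitted in edgeR 4.0.16 (R 4.3.3; TMM, filterByExpr, robust quasi-likelihood test), with adjusted p called under 0.05. CPM are counts scaled to the TMM-adjusted library size. On simulated counts for this comparison (15709 genes in the fit), 0%, 22%, 80% and 94% of genes changed 1.5, 2, 4 and 8-fold were called, and 10.9% of the calls were unchanged genes. These detection rates were not split by expression level. They therefore do not give the rate for genes of low count, as most V genes were here. Alternatives used DESeq2 1.42.0, limma 3.58.1 with 1 or 0.1 added to TPM, other filters and scalings, and leaving out each library. Peaks sharing at least 1 bp were merged across lists. Intervals came from scipy 1.17.1.

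Named genes were, by rule, Hira, all constant genes and Jchain, the 10 V genes of highest mean CPM, the 6 further called genes of largest change in each direction, and, of the other lists, called genes and a fixed set whatever their p, part of which is not reported here. Regions called in 1 pair alone and the 3 of highest rank in all lists were named.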

Additional observations from a re-analysis of the deposited data

Results flagged for a closer look

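Pseudogene segments were left out of the genes described, and 6 of them had 10 or more counts in a library. Of these 6, 4 lay higher in both labelled Hira KO libraries than in both labelled WT libraries (28.3% of all tested genes did so). Igkv14-126 had a mean of 13.5 CPM in labelled Hira KO, with 0.37 and 0 CPM in labelled WT and 14.8 and 12.3 CPM in labelled Hira KO, and was called higher by edgeR (adjusted p = 0.0336). Ighv7-1 had a mean of 13.8 CPM in labelled Hira KO, from 21.1 and 6.43 CPM, against 2.01 and 0 CPM in labelled WT (edgeR adjusted p = 0.284). Ighv7-3 had a mean of 1.89 CPM in labelled Hira KO (edgeR adjusted p = 0.272) and Igkv3-11 a mean of 0.62 CPM (0.286). Ighv1-2, another of the 6, was counted in labelled WT replicate 2 alone, with 81 counts.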

How the results depend on the processing

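The count of 22 genes higher in labelled Hira KO was 41 with DESeq2, 57 with limma on log2(TPM + 1), 43 with limma on log2(TPM + 0.1) and 62 without the low-count filter; these fits also call more of all genes. Leaving out 1 library gave 1 to 36 genes, the 1 without either labelled WT library. The count of lower genes, 0 in edgeR, was 1 (Ighv2-2) with DESeq2, both limma fits, no filter and the replicate block. The median log2 fold change of 2.90 was 3.98 and 2.71 with limma at 0.1 and 1 added, 3.86 without the filter, 3.68 with the stricter filter, 3.09 with the replicate block and 3.24 to 6.27 when 1 library was left out. The medians without the filter, with the stricter filter and with 1 library left out cover other sets of genes. With pseudogene segments kept, 23 genes were higher. The replicate block called 32 genes, among them all 22. The replicate numbers are not said to pair the libraries, and the deviations of same-numbered libraries correlated at 0.061 over 16258 genes. The mean share of the most counted heavy V gene in labelled Hira KO was 14.8% by TPM. Regions of the labelled Hira KO pair alone numbered 13 with the stricter q and 23 to 98 with 1 list left out, and those of the labelled WT pair alone 0 to 16. Signs turned for 2 genes that were not called: Cd79b was -0.043 and -0.042 with limma at 0.1 and 1 added, and with 1 library left out it ranged from -0.11 (labelled WT replicate 2 absent) to 0.17. Xbp1 ranged from -0.12 to 0.48, below 0 when replicate 2 of either group was absent. The cause of these shifts was not tested. V genes rest on at most 728 counts per chain in labelled WT, which limits their order and folds.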
